A study of Mus musculus with 6 samples.

Results

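The elastic fiber genes described here are 10 genes that encode the elastic fiber and the proteins that assemble it: Eln, Fbn1, Fbln1, Fbln2, Fbln5, Mfap4, Mfap5, Lox, Loxl1 and Ltbp4. They were taken by symbol from the 53647 genes of the deposited tables, by no rule on their values, although earlier results of these data were known. Each molecule was counted once by its unique molecular identifier (UMI), and the UMIs of a gene were summed per library and cell type over the barcodes taken as cells, which carried 500 UMIs and 300 genes or more, with mitochondrial genes at 20% or less. A level is the gene's UMIs scaled to a library and type total of 1e6 (CPM). The comparisons ask which cells of the proximal pulmonary artery (PA) carried these transcripts, and whether their levels differed between young and old mice.

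Elastic fibers give large arteries their recoil. Elastin (Eln) is secreted as tropoelastin, gathered on a scaffold of fibrillin microfibrils, and cross-linked by lysyl oxidases into a polymer that is laid down mostly early in life and turns over very slowly. Fibulins, microfibril-associated proteins and latent TGF-β binding proteins guide its deposition. In the arterial wall, smooth muscle cells (SMCs) of the media are the classical source of elastin, fibroblasts (FBs) populate the adventitia, and endothelial cells (ECs) line the lumen on the internal elastic lamina.

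Proximal PAs of C57BL/6J wild-type mice were compared between a young group of 2 libraries, both of 3 months (labelled 3m and f3m, a male and a female in the study), and an old group of 4 libraries of 20, 24, 27 and 28 months (labelled 20m, 24m, m27mo and f28m, of which the last was from a female in the study). No genotype or treatment separated the groups. Each library was 1 mouse in the study, the old mice came from a different colony in part, and the vessels were digested with collagenase and elastase together with surrounding tissue, so cells of airway, mesothelium and lymphoid tissue were present. The third young library described by the study is not analysed here.

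The libraries held 6355125 to 50436562 UMIs, and the deepest were those of 28 and 27 months. Clustering without the elastic fiber genes left 15311 cells, of which 1771 were FB-like, 3510 SMC-like and 2114 blood vascular EC-like by marker genes. The 24-month library, with 3 SMCs, enters no SMC value. In their own type, the 11 markers of FBs summed to 27220 to 40590 CPM, the 11 of SMCs to 29540 to 47250 CPM and the 11 of ECs to 7351 to 11510 CPM. The young group rested on 122 FBs, 56 SMCs and 144 ECs, with 102484, 43737 and 100405 UMIs. The 3m, f3m and 24m libraries shared 130 to 212 barcodes per pair, and in each of them at most 3 shared barcodes per type were FBs, SMCs or ECs. The library labelled 20m, from a male in the study, held 2395 UMIs of the female-specific Xist, against 46 to 164 in the other libraries of males, and of the Y-linked genes 205 of Ddx3y, 15 of Uty, 2 of Kdm5d and 2 of Eif2s3y, so that its sex markers were mixed. Red cell markers also varied, reaching 22580 CPM in FBs of the 24-month library against 17.2 CPM in those of 27 months. The part of that difference in the levels below was not tested.

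The 10 genes divided by the cell type in which their mean level was highest. Fbn1, Fbln1, Fbln2, Mfap5 and Loxl1 were highest in FBs, Eln, Fbln5 and Mfap4 in SMCs, and Ltbp4 and Lox in ECs. This assignment was the same for all 10 genes after clustering at a finer resolution or with a stricter cell filter, and for 9 of 10 in the least stable case, where Lox changed type without the 27-month library. Beyond these 3 types, mesothelial cells carried Fbln1, Ltbp4, Fbln2, Eln, Loxl1 and Fbln5 at means of 860, 816, 322, 227, 204 and 190 CPM over 5 libraries. Lymphatic ECs, with 10 cells or more in the 27- and 28-month libraries alone, held 1215 and 790 CPM of Ltbp4 and 532 and 350 CPM of Eln. B cells, T cells and perivascular macrophages (MΦs), which are not known as sources of elastic fibers, had means of at most 46.1 CPM of any member. Single libraries reached 195 CPM of Eln in T cells, 177 CPM in B cells and 88.2 CPM in MΦs. The lowest FB library held 199 CPM. Other blood cells had higher means. Erythroid cells of 2 libraries had 82.3 and 621 CPM of Eln, a mean of 352 CPM beside 439 CPM in FBs. Their means of Ltbp4, Fbln2, Fbln5 and Mfap5 were 294, 144, 138 and 134 CPM. Neutrophils of 2 libraries had means of 82.1 CPM of Fbln1 and 75.1 CPM of Ltbp4. As a gauge of free RNA, every cell was thinned to 500 UMIs. At most 3.23% of B cells of a library then held an Eln UMI, 4.21% of T cells, 8.7% of airway epithelial cells and 11.4% of erythroid cells. The shares were 8.33% to 22.9% of FBs, 17.6% to 65.5% of ECs and 23.6% to 58.8% of SMCs. The lowest FB share thus lay below the highest of airway epithelial and erythroid cells, and all shares of ECs and SMCs lay above that highest share. These extremes can come from different libraries, and free Eln differed between libraries, from 49.5 to 504 CPM. They therefore do not place the FB level against free RNA within any library.

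**Figure D1:**
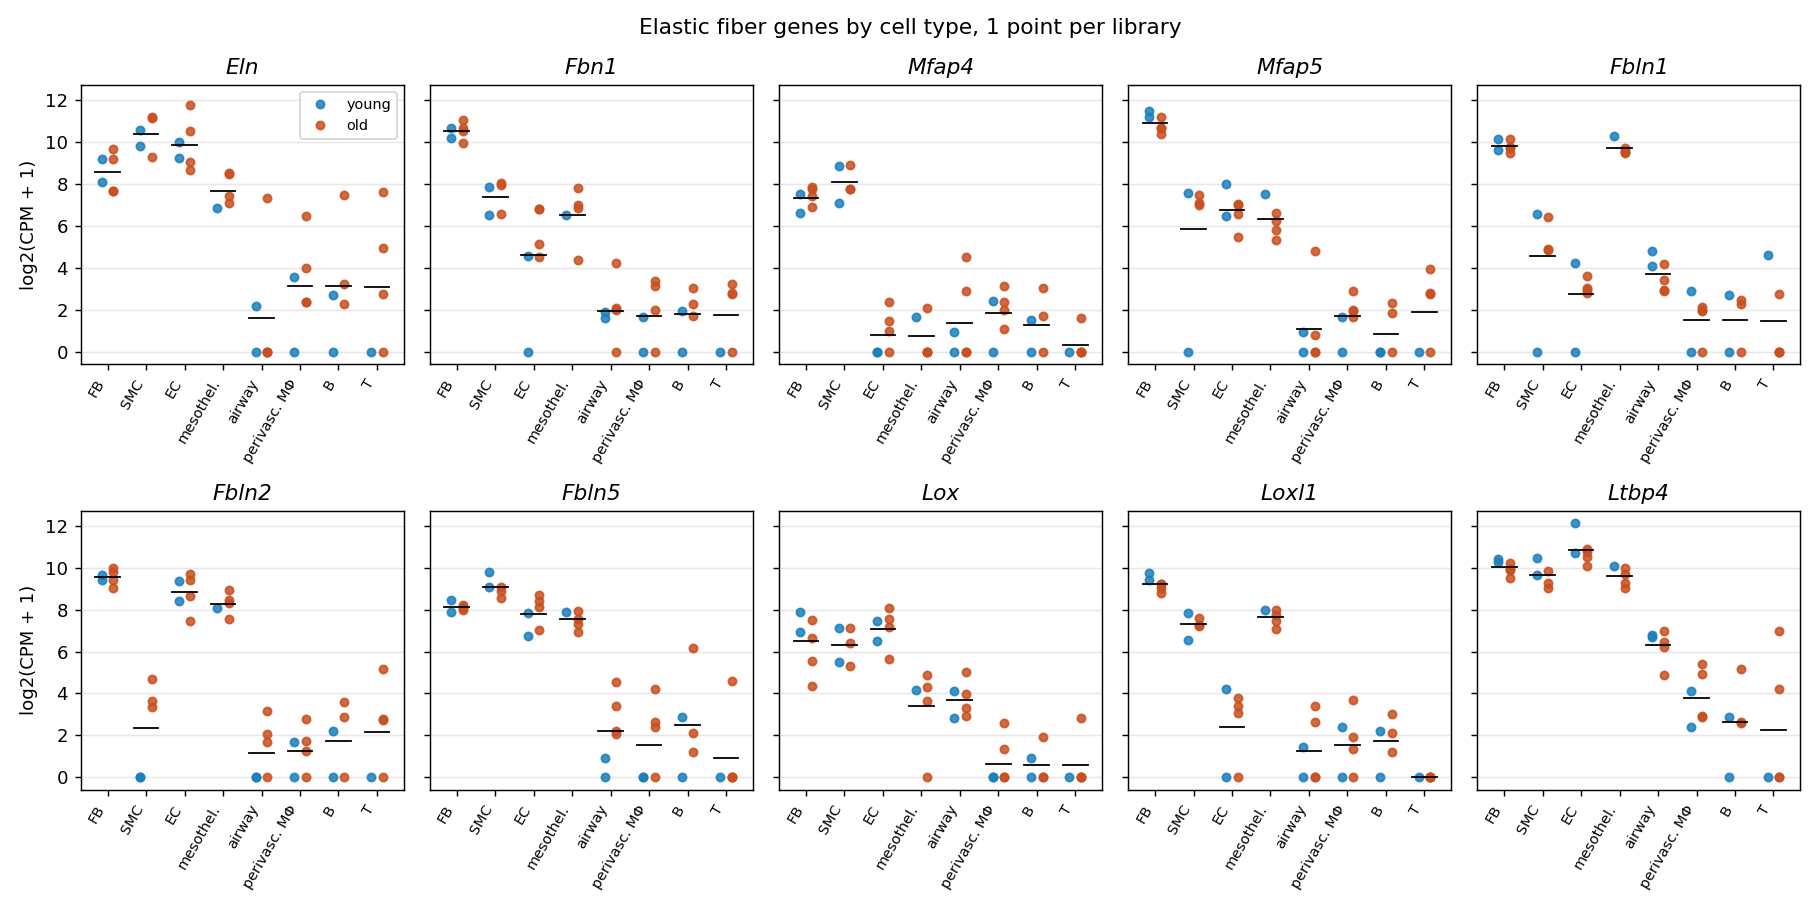
Level of each member, as log2(CPM + 1), in 8 cell types. Each point is a library with at least 10 cells of that type (blue young, orange old), and each bar is the mean of the log values over libraries. Fbn1, Mfap5, Fbln1 and Loxl1 stand highest in FBs, Mfap4 lies near 0 in ECs, and Fbln2 is low in SMCs. B and T cells have low means for every member, but single libraries reach 195 CPM of Eln in T cells and 177 CPM in B cells.

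RefSeq promoter windows of build GRCm38.p6 were at hand for 5 of the 10 members, Fbn1, Fbln1, Fbln2, Fbln5 and Ltbp4, with 9 start sites in all. The 250 bases before the outermost start site are shown for Fbln1, which led in FBs (chr15:85205699-85205948, plus strand), Fbln5, which led in SMCs (chr12:101819120-101819369, minus strand) and Ltbp4, which led in ECs (chr7:27337613-27337862, minus strand), so that genes with different cell patterns can be read side by side. Capitals mark the GC box GGGCGG on either strand, a letter match and not a mapped site.
Fbln1: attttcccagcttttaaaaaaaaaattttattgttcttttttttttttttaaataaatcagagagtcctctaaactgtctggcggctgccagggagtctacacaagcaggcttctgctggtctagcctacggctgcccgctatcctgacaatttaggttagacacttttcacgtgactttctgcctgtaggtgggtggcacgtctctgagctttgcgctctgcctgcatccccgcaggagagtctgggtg
Fbln5: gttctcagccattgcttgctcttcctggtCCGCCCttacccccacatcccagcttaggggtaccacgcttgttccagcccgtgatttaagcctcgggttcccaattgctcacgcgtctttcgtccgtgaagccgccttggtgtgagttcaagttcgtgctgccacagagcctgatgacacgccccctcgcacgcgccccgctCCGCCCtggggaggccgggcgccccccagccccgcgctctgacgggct
Ltbp4: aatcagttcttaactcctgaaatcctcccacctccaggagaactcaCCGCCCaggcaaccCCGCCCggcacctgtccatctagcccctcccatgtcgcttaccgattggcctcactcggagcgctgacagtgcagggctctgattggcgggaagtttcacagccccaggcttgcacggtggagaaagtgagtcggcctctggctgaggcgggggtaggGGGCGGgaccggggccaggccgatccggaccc
The Fbln1 window held no GC box and was 46.4% G and C, while that of Fbln2, which also led in FBs, held 1 and was 58.8%, and the Fbln5 window held 2 and was 65.2%, and the Ltbp4 window held 3 and was 64.4%. The median over 32851 mouse windows of this length was 52.4%. Of the 9 member windows 7 held a GC box, and 32.7% of all windows did. The 9 come from 5 genes, 3 of the 7 belong to Ltbp4, and windows of 1 gene can overlap, so they are not separate observations. Other start sites of the same gene differed, since the further Fbln1 window held 1 GC box and the further Fbln5 window none. None of the 9 held the AP-1 letters TGANTCA, found in 6.75% of all windows.

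Eln itself was carried by SMCs and, at comparable levels, by ECs. In SMCs its level was 618, 2302 and 2299 CPM in the libraries of 20, 27 and 28 months and 1536 and 899 CPM in the young 3m and f3m libraries, a mean of 1531 ± 777 CPM (SD, n = 5). In ECs it was 406, 524, 3482 and 1479 CPM at 20, 24, 27 and 28 months and 1008 and 593 CPM in the young, a mean of 1249 ± 1163 CPM (SD, n = 6). FBs held 200, 199, 814 and 576 CPM at the same ages and 270 and 573 CPM in the young. Within each library FBs were the lowest of the 3, in 5 of 5 libraries against SMCs and 6 of 6 against ECs. Summed counts were compared between types with edgeR's quasi-likelihood test, with the library as a block and Benjamini-Hochberg adjustment over all genes. Between FBs and SMCs the spread in this test was pooled almost wholly over genes, so its p-values do not measure each gene's own spread. Eln was lower in FBs than in SMCs by a log2 fold change of -1.53 (SE 0.23, adjusted p = 9.6e-11) and lower than in ECs by -1.32 (SE 0.19, adjusted p = 4.0e-06). The difference of 0.36 between SMCs and ECs (SE 0.21, adjusted p = 0.17) did not pass. The EC level of Eln was 0.644 to 1.51 times that of SMCs in the same library. The 11 SMC markers summed to at most 555 CPM in ECs, and Mfap4, which SMCs held at 135 to 471 CPM, was between 0 and 4.22 CPM. Barcodes under 500 UMIs of the 27-month library held 504 CPM of Eln. The part of SMC RNA or free RNA in the EC level was not tested. Of all Eln UMIs in cells, 80.0% came from SMCs, the most numerous of the 3 types, 10.7% from ECs and 6.88% from FBs. These pooled shares follow the cells caught and their depth. The 27-month library gave 2340 of the 3510 SMCs, and its SMC cluster 0 held 46204 of the 64735 Eln UMIs of SMCs.

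The microfibril genes were led by FBs, with Mfap4 as the exception. Fbn1, which encodes the fibrillin that forms the microfibril backbone, was at 988, 1460, 1626 and 2095 CPM in FBs of 20, 24, 27 and 28 months and 1153 and 1625 CPM in the young, a range that no SMC library (89.9 to 265 CPM) or EC library (0 to 110 CPM) reached. Mfap5, a microfibril-associated glycoprotein, was at 1330 to 2867 CPM in FBs, 0 to 186 CPM in SMCs and 43.1 to 251 CPM in ECs. Both passed the test against each of the other types: Fbn1 was higher in FBs by 3.18 (SE 0.25) against SMCs and 4.72 (SE 0.29) against ECs on the log2 scale, and Mfap5 by 3.86 (SE 0.25) and 4.12 (SE 0.24). Mfap4, which binds elastin and fibrillin, was split differently. SMCs held 471, 218 and 214 CPM in the old libraries of 20, 27 and 28 months and 465 and 135 CPM in the young, and FBs held 95.6 to 228 CPM. The difference between these types, -0.36 (SE 0.24, adjusted p = 0.22), did not pass, although Mfap4 was the higher in SMCs in 4 of 5 libraries. In the young f3m library that order rested on 3 UMIs in SMCs and 2 in FBs. The difference passed in 2 of 19 settings, at -0.88 with doublets kept (adjusted p = 0.0056) and at -1.17 without the 2 deepest libraries (adjusted p = 0.016). Against ECs both were higher, SMCs by 7.09 (SE 0.35) and FBs by 6.46 (SE 0.32).

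The 3 fibulins had 3 patterns. Fbln1 was an FB and mesothelial transcript, at 705 to 1147 CPM in FBs and 709 to 1266 CPM in mesothelial cells, ranges that overlapped, with at most 93.1 CPM in SMCs and 17.7 CPM in ECs. It was higher in FBs than in SMCs by 4.73 (SE 0.29) and than in ECs by 6.92 (SE 0.25), and higher in SMCs than in ECs by 2.34 (SE 0.39). Fbln2 paired FBs with ECs. FBs held 522, 685, 898 and 1017 CPM at 20, 24, 27 and 28 months and 674 and 812 CPM in the young, ECs held 399, 172, 839 and 686 CPM and 654 and 342 CPM, and SMCs held no more than 24.6 CPM. The gap between FBs and ECs of 0.72 (SE 0.22, adjusted p = 0.012) was small beside the 6.27 (SE 0.33) between FBs and SMCs and the -5.67 (SE 0.39) between SMCs and ECs, and it no longer passed with the stricter cell filter (0.69, adjusted p = 0.092), in the clusters held by all libraries (0.42, adjusted p = 0.14) or with the gene filter of edgeR's filterByExpr (0.55, adjusted p = 0.054). Fbln5, which tethers elastin to cells and is required for normal elastic fiber assembly, was the fibulin of SMCs. It was at 372, 468 and 532 CPM in SMCs of 20, 27 and 28 months and 884 and 539 CPM in the young, above the highest FB library (356 CPM). Fbln5 was lower in FBs than in SMCs by -0.65 (SE 0.23, adjusted p = 0.014) and higher in SMCs than in ECs by 1.27 (SE 0.25). Clustering at a finer resolution moved these adjusted p-values to 0.38 and 0.15, and the difference from FBs did not pass without the library of 27 months (0.063) or of 28 months (0.058). Between FBs and ECs the 0.30 (SE 0.25, adjusted p = 0.37) did not pass.

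**Figure D2:**
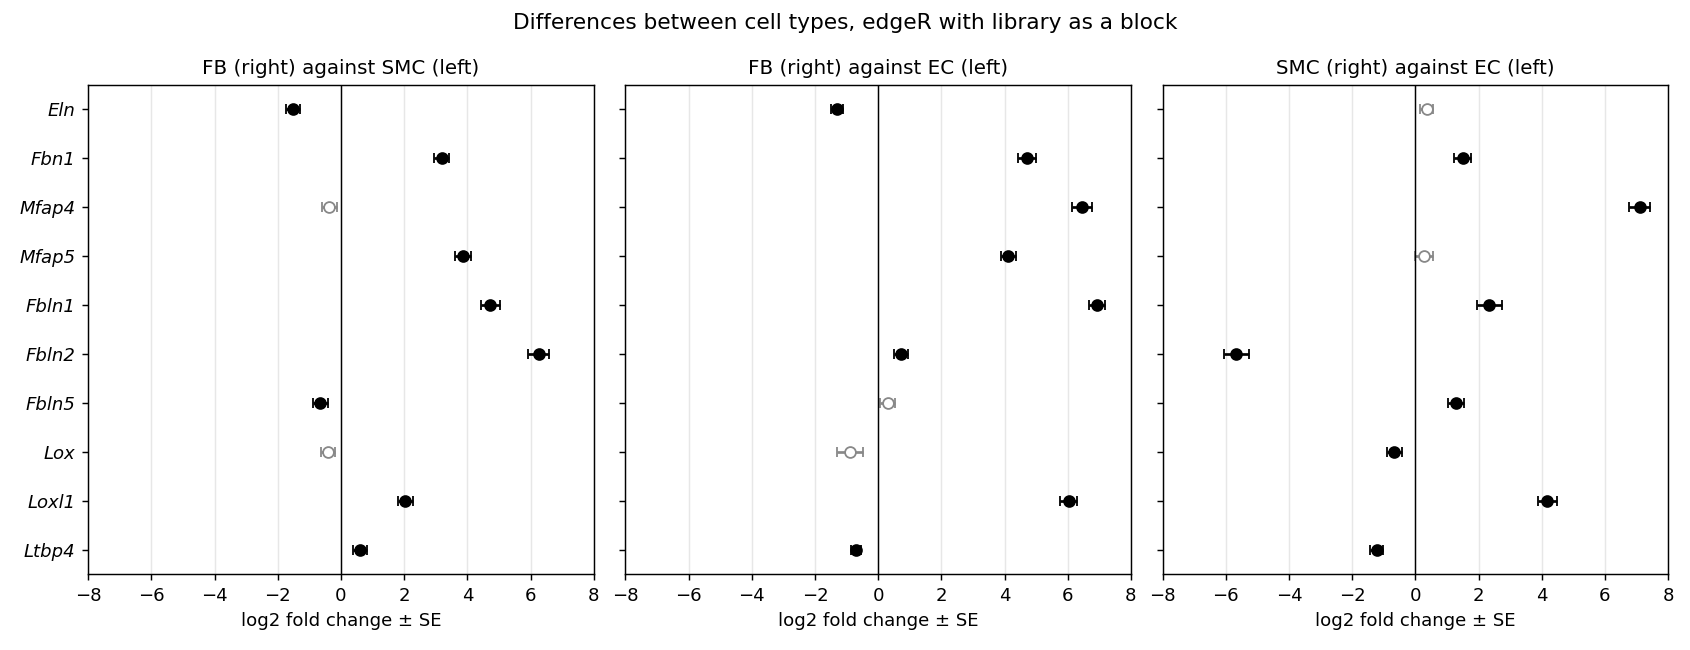
Log2 fold change ± SE of each member between pairs of cell types, in 5 libraries for the pairs with SMCs and 6 for FBs against ECs. Filled black points passed an adjusted p under 0.05 and open points did not. Values to the right mean higher in the first type of the title, as for Fbln1 in FBs against SMCs at 4.73.

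The cross-linking enzymes differed from each other. Loxl1, a lysyl oxidase paralog that acts on elastin, followed the FB genes at 437 to 860 CPM in FBs, 93.1 to 225 CPM in SMCs and 0 to 17.7 CPM in ECs, and fell in that order by 2.04 (SE 0.24) from FBs to SMCs and by 4.18 (SE 0.30) from SMCs to ECs. Lox was low in each of the 3 types and varied within them: 19.4 to 239 CPM in FBs, 38.9 to 140 CPM in SMCs and 49.4 to 271 CPM in ECs. The sole Lox difference that passed was -0.67 (SE 0.24, adjusted p = 0.027) between SMCs and ECs, in the same direction in 5 of 5 libraries. In the young libraries that direction rested on 4 Lox UMIs in SMCs and 14 in ECs. The difference did not pass without the library of 27 months (adjusted p = 0.21) or of 28 months (adjusted p = 0.16), nor in 4 of the other alternatives run. Neither -0.40 (SE 0.22) between FBs and SMCs nor -0.89 (SE 0.40, adjusted p = 0.11) between FBs and ECs passed. The former did with doublets kept (-0.79, adjusted p = 0.030) and with no gene filter (-0.76, adjusted p = 0.019), and the latter in 3 alternatives, among them thinning to 500 UMIs (-1.29, adjusted p = 0.017). Free RNA, taken as the UMIs of barcodes under 500 UMIs, held 9.82 to 41.9 CPM of Lox, and 39.9 CPM in the 20-month library. The lowest FB level (19.4 CPM at 20 months, from 7 UMIs) and the lowest SMC level (38.9 CPM, also at 20 months) lay within that range.

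Ltbp4, a latent TGF-β binding protein that also steers Fbln5 and elastin onto microfibrils, was, with Lox, highest in ECs. Its EC level was 1920, 1473, 1695 and 1085 CPM at 20, 24, 27 and 28 months and 4438 and 1642 CPM in the young, and it exceeded the level of FBs in 6 of 6 libraries and that of SMCs in 5 of 5. FBs held 721 to 1349 CPM and SMCs 519 to 1396 CPM. Ltbp4 was lower in FBs than in ECs by -0.71 (SE 0.15, adjusted p = 0.00046) and lower in SMCs than in ECs by -1.23 (SE 0.19, adjusted p = 8.2e-06). With the stricter cell filter the difference between FBs and ECs was -0.42 and did not pass (adjusted p = 0.26). The 0.61 between FBs and SMCs (SE 0.21, adjusted p = 0.012) was lost in 11 alternatives, among them the fits without the library of 27 months (adjusted p = 0.11), of 28 months (0.081) or the young f3m library (0.17).

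In each pair of types 8 of the 10 members passed, against 46.7% of all genes tested between FBs and SMCs, 40.1% between FBs and ECs and 42.8% between SMCs and ECs. Other genes had chosen the types, so these shares are a description. Against SMCs 6 members were higher in FBs and 2 lower, beside 30.8% and 16% of all genes. Against ECs 6 were higher in FBs and 2 lower, beside 21.2% and 19%. Between SMCs and ECs 5 were higher in SMCs and 3 lower, beside 21.2% and 21.6%. The median log2 fold change of the members was 1.32, 2.42 and 0.82 beside 0.21, 0.02 and -0.01 over all genes. With TMM normalization 2463 of 3742 genes called between FBs and SMCs were higher in FBs, against 1907 of 3493 without it, and the median over all genes moved from 0.21 to 0.05. No member changed direction between these scalings in any pair. Without the block by library, 1753, 1815 and 1929 genes passed in the 3 pairs in place of 3742, 2994 and 3305, and 6, 6 and 7 members did.

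The rest of the elastic fiber and microfibril list, 21 genes, leaned to FBs. Of 17 tested between FBs and SMCs, 12 were higher in FBs and 3 lower, with a median of 1.09. Those higher were Emilin2, Adamtsl2, Efemp1, Loxl2, Bmp1, Adamtsl4, Mfap2, Atp7a, Adamts10, Loxl3, Adamtsl5 and Efemp2, and they ranged from 8.61 for Emilin2 to 0.57 for Efemp2. Thsd4, a fibrillin-binding ADAMTS-like protein, was lower in FBs by -5.58 (SE 0.33), as were Emilin1 by -0.66 (SE 0.22) and Ltbp1 by -0.60 (SE 0.23). Of these, Adamtsl5, Efemp2 and Ltbp1 passed in 9 of 17, 6 of 17 and 10 of 19 settings. Against ECs 11 of 15 were higher in FBs and none passed as lower, and the latent TGF-β binding protein gene Ltbp1 was among the 11 at 1.81 (SE 0.45). Between SMCs and ECs 6 of 14 were higher in SMCs (Adamtsl5, Efemp2, Loxl3, Thsd4, Ltbp2 and Ltbp1) and 3 lower (Efemp1, Atp7a and Adamts10). Of the 9 elastin-degrading enzymes 4 were tested in the FB pairs, Mmp2, Mmp14, Ctsk and Ctsl, and all 4 were higher in FBs than in SMCs, by 1.67 to 5.65, and than in ECs, by 1.42 to 2.83. Mmp2, a gelatinase that cleaves elastin, was lower in SMCs than in ECs by -2.65 (SE 0.35). The elastin receptor complex (Glb1, Neu1 and Ctsa), which binds elastin peptides, had 1 call in 9 tests, Glb1 in FBs against SMCs at 0.75 (SE 0.22), which passed in 9 of 16 settings.

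Within ECs the members were not spread evenly over the clusters. Cluster 7, with the arterial gene Gja5 among its leading genes, held 3835 CPM of Eln in the 27-month library and 1777 CPM in the 28-month library. Cluster 19, led by the capillary genes Gpihbp1 and Fabp4, held 116 and 64.6 CPM in the same libraries. Ltbp4 went the same way, with 1805 and 1232 CPM in cluster 7 and 674 and 343 CPM in cluster 19, as did Mfap5, with 146 and 148 CPM against 0 and 8.90 CPM. Cluster 2, the EC cluster with at least 10 cells in every library, held 2359 and 837 CPM of Eln in these libraries. With 2 libraries this is a description and no test was made. Among FBs, clusters 1 and 12 shared Dpt and Abca8a among their leading genes, and cluster 12 held 21 and 54 cells of the 27- and 28-month libraries. Fbln2 was at 901 and 1021 CPM in cluster 1 and 425 (from 7 UMIs) and 608 CPM in cluster 12 of these libraries. Mfap5 was at 1333 and 1606 CPM in cluster 1 and 850 (from 14 UMIs) and 1060 CPM in cluster 12. Fbn1 was at 1633 and 2102 CPM in cluster 1 and 304 (from 5 UMIs) and 1335 CPM in cluster 12. Eln was at 816.5 and 574 CPM against 304 (from 5 UMIs) and 785 CPM, so its order differed between the libraries. The order of Mfap5 differed in other libraries, with 1609 CPM in cluster 1 and 1603 CPM in cluster 12 at 24 months. In the young 3m library these were 1783 and 2374 CPM. Fbln2 kept its order there, at 1056 and 644.5 CPM at 24 months and 1364 and 583 CPM in the young 3m library. Cluster 1 held 18 and 10 cells of these 2 libraries. The 3 SMC clusters (0, 4 and 13) held 1651 to 2318 CPM of Eln in the 27- and 28-month libraries.

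**Figure D3:**
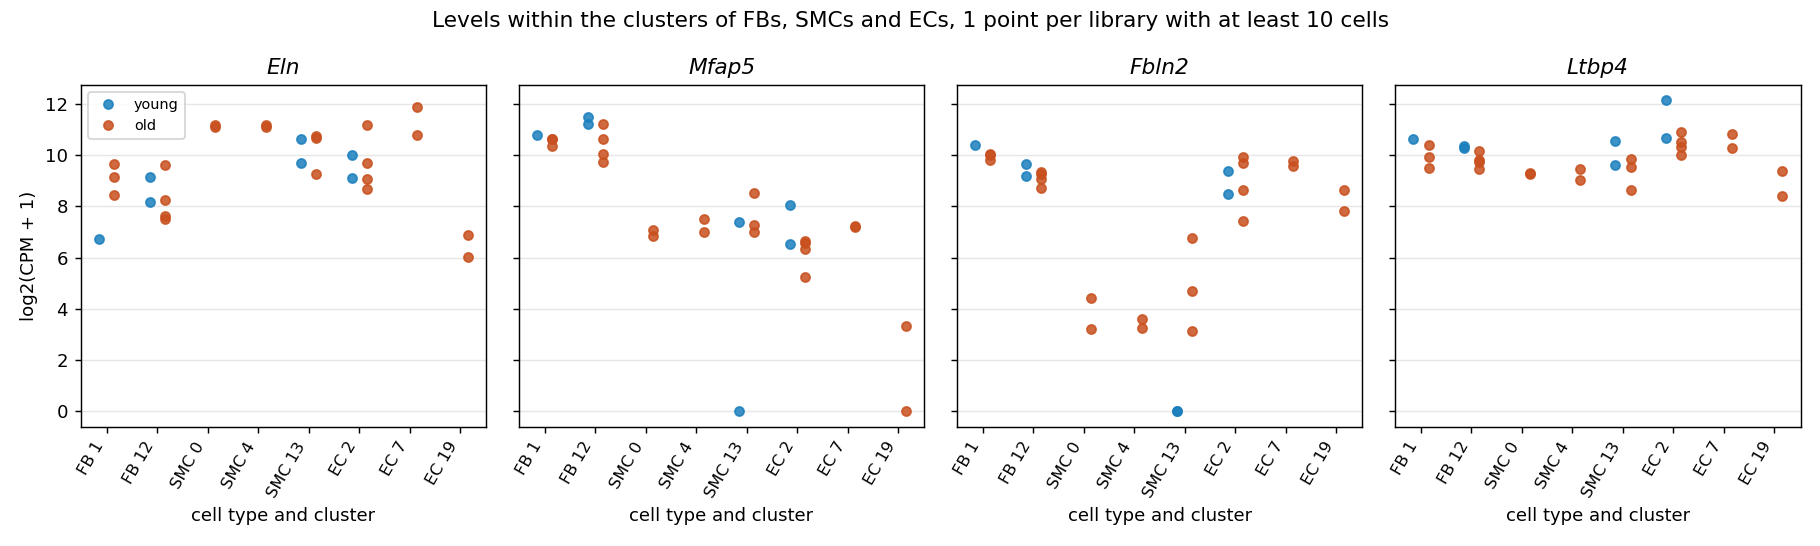
Levels of Eln, Mfap5, Fbln2 and Ltbp4, as log2(CPM + 1), in the clusters of FBs, SMCs and ECs, with 1 point per library that held at least 10 cells of the cluster (blue young, orange old). Eln is lowest among EC clusters in cluster 19, at 64.6 and 116 CPM, and Fbln2 is lowest in the SMC clusters.

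Old and young libraries were then compared within each type. No member passed in FBs, SMCs or ECs. Over all genes 3 of 6599 passed in FBs, which is 0.0455%, namely Mmp3, Ttll12 and Itm2a, named after their values were seen. In SMCs 0 of 6854 passed and in ECs 0 of 5868, while before adjustment 559 and 332 genes had a p under 0.05, and DESeq2 called 1 gene in each. All 10 members were tested in FBs and SMCs and 7 in ECs, where Fbln1, Loxl1 and Mfap4 were left out because fewer than 3 libraries had them in more than 5% of cells. Data were simulated with the depth of these libraries, 1 mean profile for all of them and a spread taken from its trend over genes. There the FB comparison recovered 16 of 200 genes changed 4-fold and 176 of 200 changed 16-fold, the SMC comparison 1 and 120, and the EC comparison 34 and 187. Over the genes simulated, a 4-fold change was thus mostly not recovered. These shares do not give the power on the real data and do not describe the members alone. In FBs the 95% intervals of the fitted log2 fold changes excluded a 4-fold change for every member but Lox (-2.61 to 0.97). That of Eln was -0.82 to 1.45. These are intervals of the main fit. Over 20 settings the fitted Eln value in FBs ran from -0.73 to 2.83, so a 4-fold change of Eln was not excluded in all of them. In SMCs it was excluded for some members, as for Fbln5 (-1.38 to 0.89), and not for Eln (-0.45 to 2.16). In ECs it was not excluded for Eln (-0.72 to 2.28). These intervals rest on a spread that edgeR shares over genes. They use a normal multiplier of the SE, so they are somewhat narrower than the F test behind the p-values would give. The clusters that made up a type also differed with the library: most FBs of 27 and 28 months were in cluster 1 and most of the other libraries in cluster 12, nearly all SMCs of the young and 20-month libraries were in cluster 13, and nearly all ECs outside the 2 deepest libraries were in cluster 2.

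In FBs 5 members had a positive and 5 a negative log2 fold change, old against young, where 63.1% of all genes were positive, with a median of -0.015 beside 0.25 over all genes. They ran from -0.82 (SE 0.92) for Lox to 0.33 (SE 0.44) for Fbn1. Loxl1 was at 530, 437, 590 and 596 CPM in FBs of 20, 24, 27 and 28 months and 687 and 860 CPM in the young. Ltbp4 was at 1185, 953, 984 and 721 CPM against 1349 and 1242 CPM. For both genes every old library lay below both young libraries, which held for 7.68% of all genes tested in FBs, and the fitted changes of -0.36 (SE 0.41) and -0.28 (SE 0.44) did not pass. In FB cluster 12 alone, which all 6 libraries held, they were -0.55 and -0.36. Eln was at 0.31 (SE 0.58) and turned to -0.07 in cluster 12.

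In SMCs 7 members were positive and 2 negative, leaving out Fbln2, where 70.6% of all genes were positive, and the middle one of these, Loxl1, was at 0.46 (SE 0.70) beside a median of 0.54 over all genes. Without TMM normalization the median over all genes fell to 0.16, and Lox and Fbln1 turned from 0.31 and 0.37 to -0.04 and -0.08. Eln was the member with the smallest p, at 0.86 (SE 0.67, adjusted p = 0.72). Leaving out the 20-month library gave 1.27 (adjusted p = 0.0032) and raised the genes called from 0 to 188. Without the 27- and 28-month libraries Eln was at -0.40 (adjusted p = 0.65), with 1 old library that was assumed to vary like the young. Fbln5 was below both young libraries in all 3 old ones, as were 11.6% of all genes tested in SMCs, at -0.25 (SE 0.58). Fbln2 had 0 UMIs in both young libraries and 9.36 to 24.6 CPM in the old, but 3 counts in a young library would already be 135 CPM, so a difference was not detectable at this depth. The young 3m library also held 5631 CPM of the 7 cardiomyocyte markers in its SMCs, against 729 to 1025 CPM in the others, and the part of this in the result was not tested.

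In ECs 5 of the 7 tested members were positive, as were 57% of all genes, with a median of 0.18 beside 0.12 over all genes. Old and young overlapped for each of these 7, and 19.9% of all genes tested in ECs did not overlap. So few members cannot be told apart from that share. Fbn1 had the smallest p, at 2.78 (SE 1.29, adjusted p = 0.87), but the young ECs held a single Fbn1 UMI among 100405. The pooled ratio of old to young was 8.56, with a 95% counting interval of 1.53 to 339. Ltbp4 was at -0.99 (SE 0.55, adjusted p = 0.90), Eln at 0.78 (SE 0.77) and Mfap5 at -0.73 (SE 0.57). In EC cluster 2 alone these 4 genes were at 2.25, -0.93, 0.47 and -0.89.

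**Figure D4:**
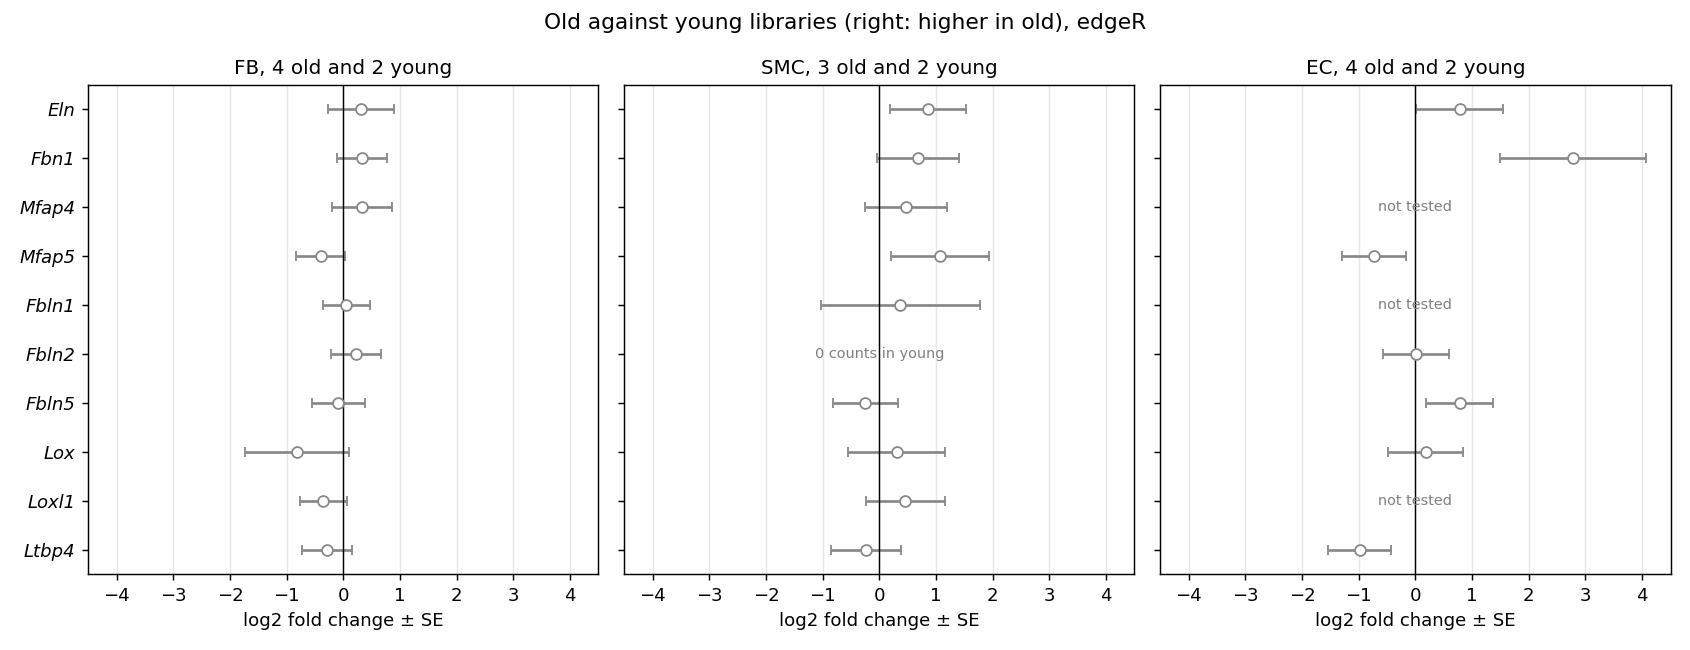
Log2 fold change ± SE of each member in old against young libraries, in FBs, SMCs and ECs. Open points did not pass an adjusted p under 0.05, and no member passed. Members that fell under the filter are marked as not tested, and Fbln2 in SMCs, with 0 counts in the young, is not drawn.

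Eln did not follow age evenly among the old mice. In FBs the levels of 199 and 200 CPM at 24 and 20 months lay below both young libraries, and that of 814 CPM at 27 months above both. The 576 CPM at 28 months was level with the higher young value of 573 CPM, which came from 12 UMIs. ECs had 406 and 524 CPM at 20 and 24 months, below the young range of 593 to 1008 CPM, and 1479 and 3482 CPM at 28 and 27 months, above it. SMCs had 618 CPM at 20 months, below the young range of 899 to 1536 CPM, and 2299 and 2302 CPM at 28 and 27 months, above it. The 27- and 28-month libraries were also the deepest, at 36218542 and 50436562 UMIs, so age within the old group and library cannot be told apart. In the clusters with at least 10 cells in each library fitted for the type, the order was kept in part. In FB cluster 12 Eln was at 304 CPM at 27 months, from 5 UMIs, between the young values of 292 and 573 CPM, and at 785 CPM at 28 months. In EC cluster 2 it was at 2359 CPM at 27 months and at 837 CPM at 28 months, the latter within the young range of 551 to 1030 CPM. In SMC cluster 13 it was at 1651 and 1720 CPM, against 833 and 1610 CPM in the young. Free RNA held 504 CPM of Eln at 27 months, 342 CPM at 20 months and 49.5 to 100 CPM in the other 4 libraries, and its part in these levels was not tested.

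No gene of the other lists passed between ages, but some had a p under 0.05 in the edgeR test before adjustment. In ECs these were Mmp2 (0.0020), Ltbp1 (0.0080) and Ctsa (0.032), and in FBs Adamtsl2 (0.026) and Loxl3 (0.039). Over all genes, 332 of 5868 tested in ECs and 453 of 6599 in FBs lay under 0.05. Of 15 further elastic fiber genes tested in FBs, 14 in SMCs and 8 in ECs none passed. The smallest p-values in FBs belonged to Adamtsl2, Loxl3 and Emilin1, of which the young FBs held 0, 1 and 2 UMIs, and those in SMCs to Efemp2, Loxl3 and Emilin1, with 1, 0 and 2 UMIs in the young. For Emilin1 the pooled ratio of old to young was 4.0 in FBs (95% counting interval 1.10 to 33.1) and 2.46 in SMCs (0.681 to 20.3). In ECs Ltbp1 was at 2.06 (SE 0.66, adjusted p = 0.85), Ltbp3 at -0.49 (SE 0.61) and Bmp1 at -0.51 (SE 0.65). Of the elastin-degrading enzymes 4, 2 and 3 were tested and none passed. Mmp2 was at -0.70 (SE 0.42) in FBs and -1.81 (SE 0.48, adjusted p = 0.85) in ECs, Ctsl at 0.40 (SE 0.45), 0.74 (SE 0.71) and 0.38 (SE 0.54) in FBs, SMCs and ECs, and Ctsk at -0.18 (SE 0.65) in FBs. Mmp14 had 1 UMI in young SMCs and 2 in young ECs, and its pooled ratios of old to young were 2.47 (95% counting interval 0.443 to 97.7) and 2.32 (0.636 to 19.3). Of the elastin receptor complex, Ctsa was at -1.21 (SE 0.50, adjusted p = 0.85) and Glb1 at -0.94 (SE 0.70) in ECs, and none of its genes passed in any type. Mmp12 and Elane, elastases of leukocytes named after their values were seen, were nearly absent from these cells. Mmp12 had 0 UMIs in FBs, 2 in SMCs and 11 in ECs of the old libraries, and Elane had 1, 0 and 0.

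Across 50 profiles of a library and cell type with at least 20 cells, from 12 types, each member's level was correlated with 10632 other genes as log2(CPM + 1). The points share libraries and depth, and the values are a description. Eln was nearest to Bgn (Pearson's r = 0.923), which encodes the small proteoglycan biglycan, and to Lims2 (0.907). Fbn1 was nearest to Col1a1 (0.881) and Sparc (0.88), Fbln1 to Pcolce (0.926) and Ildr2 (0.874), Mfap5 to Vit (0.908) and Galnt15 (0.872), and Loxl1 to Col6a3 (0.876) and Ddr2 (0.873). Col1a1 and Col6a3 were among the markers that named the FBs. Fbln2 was nearest to Galnt15 (0.927) and Plat (0.886), which encodes tissue plasminogen activator, Fbln5 to Pdgfd (0.931) and Fhl1 (0.926), and Mfap4 to Ccn5 (0.922) and Efhd1 (0.896). Lox was nearest to Mxra8 (0.874) and Scara3 (0.868), and Ltbp4 to Cavin1 (0.961), which encodes a coat protein of caveolae. Among the members themselves the closest pair was Eln with Fbln5 (0.891), followed by Fbn1 with Mfap5 (0.866) and Fbln5 with Ltbp4 (0.861), and the most distant was Fbln2 with Mfap4 (0.148).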

How the data were processed

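Single-cell RNA of proximal PAs was sequenced with 10x 3′ chemistry. Per the submitters' processing notes, reads were trimmed with Cutadapt and counted with STARsolo on build GRCm38.p6, and the authors deposited per library the UMI counts of each gene in each barcode, unfiltered. Versions were not given in the sources used here.

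Barcodes of 500 UMIs and 300 genes or more, with 20% mitochondrial UMIs or less, were kept, 311 likely doublets among 15622 were removed with scanpy's Scrublet (scanpy 1.11.5), and cells were clustered (leidenalg 0.10.2, resolution 1.0) without the elastic fiber lists, so that the members did not choose the types. Of 31 clusters, 3 with 614 cells stayed unnamed. Groups followed the library names. Counts were summed per library and type (at least 10 cells) and tested with edgeR 4.0.16 (TMM, quasi-likelihood, robust) over genes seen in more than 5% of cells of 3 libraries or more. Calls needed an adjusted p under 0.05 over all genes. Between types the library was a block, since both types came from the same mouse. Between ages no pairing exists. P-values measure a spread between these libraries that edgeR shares over genes, and not the spread of each gene alone. Between FBs and SMCs it was pooled almost wholly: Lox had an SE of 0.22, although its FB to SMC ratio ran from 0.334 to 5.32 over 5 libraries. Counting intervals and floors (3 counts per library) cover counting error only. The floor was 36.8 to 143 CPM in young FBs, 135 to 140 CPM in young SMCs and 53.0 to 68.4 CPM in young ECs. The fits recovered all 200 genes changed 4-fold between types on simulated data. The simulation gave every library the same mean profile and took the spread from its trend over genes, so it does not give the power on the real data.

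All members were named. Of the other lists, genes past the threshold were named, or the 3 with the smallest p, and for each member the 2 genes outside the lists with the highest correlation. One of these for Ltbp4 is not reported here. The members and lists were chosen with earlier results of these data known. Alternatives were stricter cell filters, doublets kept, shared barcodes removed, resolution 2.0, thinning to 500 UMIs, other gene filters, no TMM, DESeq2 1.42.0, a shared-barcode covariate, no block and each library left out. Fits on clusters held by all libraries and fits without the 2 deepest libraries were chosen after seeing the data. Clusters held by all libraries had at least 10 cells in each library fitted for the type.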

Additional observations from a re-analysis of the deposited data

How the results depend on the processing

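The small young libraries limit the age comparisons, and the filter on genes and the left-out library move the counts of genes called. Old against young, 3 genes were called in FBs, against 0 with the stricter cell filter, without the 2 deepest libraries or with the barcode covariate, 1 with doublets kept, thinned or in clusters held by all libraries, 10 with no gene filter, and 0 to 2 with a library left out. In SMCs 0 were called, against 7 at resolution 2.0, 4 in clusters held by all libraries, 2 with filterByExpr, 35 with no gene filter, 1 without TMM, with DESeq2 or without the 2 deepest libraries, and 0 to 188 with a library left out. In ECs 0 were called, against 8 with no gene filter and 1 with DESeq2. The stricter cell filter could not be fitted for age in SMCs and ECs, nor the covariate in SMCs. Thinning, clusters held by all libraries and the fit without the 2 deepest libraries gave 1148, 1213 and 897 genes between FBs and SMCs (3742), 1306, 1540 and 1341 between FBs and ECs (2994), and 1266, 1783 and 1252 between SMCs and ECs (3305). With a library left out the counts were 1547 to 3670, 1805 to 2951 and 1486 to 3191. These fits test fewer genes or samples.

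Without the block by library, 1753, 1815 and 1929 genes were called in the 3 pairs of types, and Ltbp4 and Fbln5 between FBs and SMCs, Ltbp4 and Fbln2 between FBs and ECs, and Lox between SMCs and ECs no longer passed. No paired analysis was possible because the old and young libraries share no mouse, and their replicate numbers only name them.

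Directions turned only for values that had not passed. Between ages in FBs, the stricter cell filter gave Fbln2 -0.37, Fbln5 0.02, Mmp2 0.14 and Ctsk 9.61, doublets kept gave Ltbp4 0.11, Fbln5 0.21, Ctsk 0.35 and Neu1 -1.42, removal of shared barcodes gave Fbln1 -0.05, thinning gave Fbln2 -0.15, clusters held by all libraries gave Fbn1 -0.20, Eln -0.07, Fbln2 -0.15 and Ctsa 0.16, no gene filter gave Ltbp4 0.01, Fbln5 0.22 and Ctsk 0.13, no TMM gave Fbln1 -0.11, the fit without the 2 deepest libraries gave Eln -0.73, Fbln2 -0.08, Fbln1 -0.02 and Ctsk 0.19, and the covariate gave Lox 0.49, Mfap4 -0.13, Eln -0.64, Fbln1 -0.10 and Ctsk 0.51. In SMCs, the fit without the 2 deepest libraries gave Eln -0.40, Fbn1 -0.20 and Ltbp4 0.32, thinning gave Mfap4 -0.15 and Loxl1 -0.45, no gene filter gave Fbln5 0.45 and Ltbp4 0.40, no TMM gave Lox -0.04, Fbln1 -0.08 and Ctsa -0.12, doublets kept gave Glb1 -0.19 and Ctsa -0.23, and resolution 2.0 gave Ctsa -0.06. In ECs, the fit without the 2 deepest libraries gave Eln -0.58, Lox -0.23 and Fbln2 -0.48, the covariate gave Eln -0.53 and Fbln2 -1.46, thinning gave Lox -0.09, removal of shared barcodes gave Fbln2 -0.00, and no gene filter gave Ltbp3 0.04 and Bmp1 0.01. Between FBs and ECs, filterByExpr gave Glb1 -0.02 and Ctsa -0.08, no gene filter gave Ctsa -0.02 and Neu1 -0.08, no TMM gave Ctsa -0.01 and Neu1 -0.04, the fit without the 2 deepest libraries gave Ctsa -0.01, and without the block Ctsa was -0.01 and Neu1 -0.07. With a library left out, values turned as follows. Between ages in FBs, Ltbp4 ran from -0.54 to 0.04, Mfap4 from -0.08 to 1.34, Eln from -0.16 to 0.61, Fbln5 from -0.46 to 0.59, Fbln1 from -0.02 to 0.10 and Glb1 from -0.67 to 0.15. In SMCs, Mfap4 ran from -0.13 to 1.57, Loxl1 from -0.06 to 1.30, Fbln5 from -0.51 to 0.12, Ltbp4 from -0.60 to 0.17, Lox from -0.24 to 1.32, Fbln1 from -0.63 to 11.36, Neu1 from -1.87 to 10.15 and Glb1 from -0.23 to 10.80. In ECs, Mfap5 ran from -1.31 to 0.14, Lox from -0.22 to 0.79 and Fbln2 from -0.40 to 0.59. Between FBs and SMCs, Lox ran from -0.87 to 0.22. Between FBs and ECs, Ctsa ran from -0.02 to 0.14. Between SMCs and ECs, Neu1 ran from -0.01 to 0.90. Fitted values of about 9 or more arise where the young cells in the fit held 0 UMIs of the gene, and are no bound. The cause of the other turns was not tested.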
